A study of Homo sapiens with 4 samples.

Results

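Matrix metalloproteinases (MMPs) and their tissue inhibitors (TIMPs) were followed in U87MG cells, an established human glioblastoma line of wild type genotype, with and without chaetocin. The 10 genes were taken as a named list out of the 57905 genes in the deposited counts: the secreted proteases *MMP1*, *MMP2* and *MMP3*, the membrane-bound proteases *MMP14*, *MMP15*, *MMP17* and *MMP24*, and the inhibitors *TIMP1*, *TIMP2* and *TIMP3*. All 10 had enough reads to be tested. Bulk RNA sequencing covered 4 samples. The 2 control samples were left untreated, and the 2 chaetocin samples received 50 nM of the compound, a fungal metabolite known as an inhibitor of histone methyltransferases, during 24 h. Chaetocin was given in DMSO and the control cells received nothing, so the compound and its solvent cannot be told apart here. The sources do not state whether the 2 samples of a group came from separate cultures, and the p-values measure only the spread between these samples, which may be technical. In bulk RNA, a smaller share of cells that make a transcript and less of it per cell cannot be told apart.

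MMPs are zinc-dependent proteases that cleave proteins of the extracellular matrix and of the cell surface. They are made as inactive precursors, and cutting off or displacing the propeptide frees the catalytic zinc. Secreted members act in the matrix around the cell, whereas membrane-bound members stay on the surface through a transmembrane stretch or a lipid anchor. TIMPs block the active site by binding to it, and *TIMP2* also has a role in activation, since a complex of MMP14 and TIMP2 on the surface captures the precursor of MMP2. Glioma cells are known for invading the surrounding brain, and MMP2 and MMP14 are among the proteases studied in that setting.

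The zinc-binding site is a part that all 7 protease genes encode. Its coding sequence is shown to let the reader see how far secreted and membrane-bound members resemble each other there. Each stretch has 33 bases, was read from the GENCODE v29 transcripts (GRCh38) and is written 5′ to 3′. Capitals mark the 17 bases that are identical in all 7 genes.
MMP1: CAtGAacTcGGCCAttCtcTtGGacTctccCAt
MMP2: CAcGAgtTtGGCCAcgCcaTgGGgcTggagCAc
MMP3: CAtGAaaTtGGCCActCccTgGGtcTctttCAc
MMP14: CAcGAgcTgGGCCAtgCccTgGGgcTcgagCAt
MMP15: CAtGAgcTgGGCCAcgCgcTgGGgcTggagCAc
MMP17: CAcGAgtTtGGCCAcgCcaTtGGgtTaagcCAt
MMP24: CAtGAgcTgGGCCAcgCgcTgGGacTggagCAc
*MMP15* and *MMP24* differed at 1 base, the fewest of any pair, and *MMP1* and *MMP2* differed at 15, the most. The secreted *MMP2* was closer to the membrane-bound *MMP15* (5 differing bases) than to the secreted *MMP1* or *MMP3* (10 bases to *MMP3*). No stretch of 50 bases, the length of the reads, was shared exactly between any 2 of the 10 genes. Full-length reads without errors could therefore not be exchanged between members. Shorter reads, as trimming can leave, were not compared.

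Of the 10 genes, only *MMP14* passed the test across all genes, and it was lower with chaetocin (edgeR's quasi-likelihood test with Benjamini-Hochberg adjustment over 16416 genes, n = 2 samples per group). No member was called higher with edgeR, although *MMP1* and *MMP3* had an unadjusted p under 0.05, and DESeq2 also called 0 higher. An unadjusted p under 0.05 was common, with 20.3% of all genes tested (10.9% higher and 9.43% lower), so it does not set a member apart. It was met by 6 of the 10 members, 2 of them higher and 4 lower. DESeq2 called 2 members lower, *MMP14* and *TIMP2*. Adjusted with DESeq2, 2.35% of all genes were called higher and 2.93% lower. For comparison with edgeR's calls, 1.85% of all genes tested were called in either direction, 1.11% higher and 0.743% lower. In 3 members (30.0%) both chaetocin samples lay above both control samples in CPM, and in 5 (50.0%) both lay below. Among all genes tested these shares were 26.8% and 26.0%. CPM is a count scaled to a common library size after TMM normalization, and adjusted p-values below are those of edgeR unless DESeq2 is named.

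**Figure D1:**
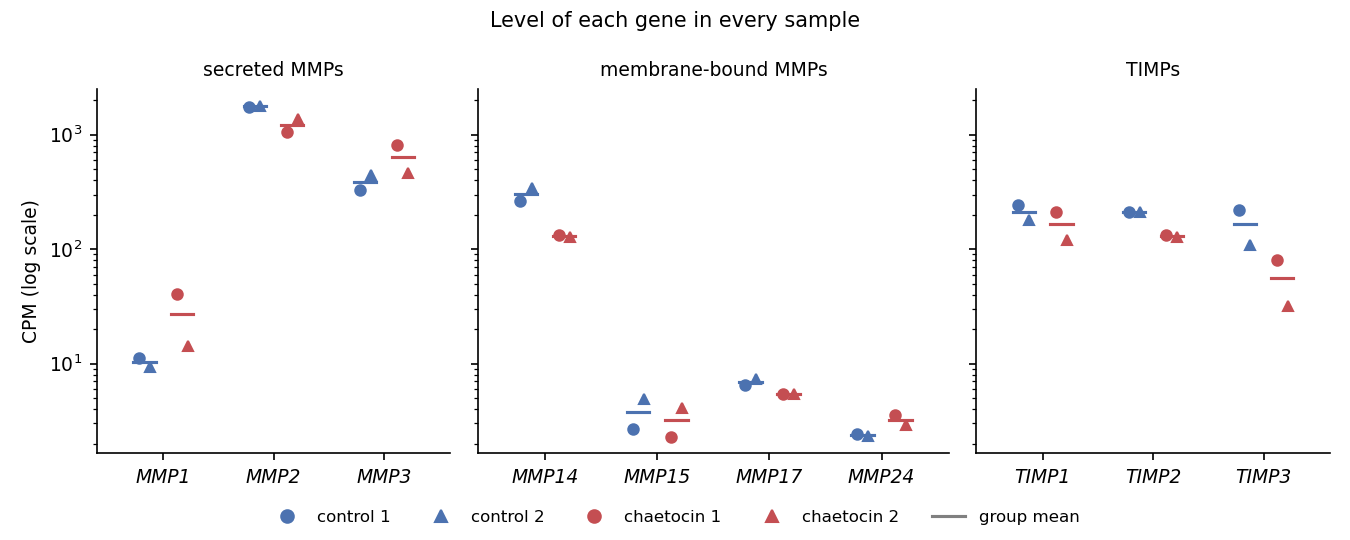
Level of the 10 genes in each of the 4 samples, in CPM on a log axis, with circles for replicate 1, triangles for replicate 2 and a bar for the group mean. The chaetocin samples of *MMP14* sit at 133 and 127 CPM, below the control samples at 262 and 342 CPM, whereas the groups of *MMP15* and *TIMP1* overlap.

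Among the secreted members, none passed the test with edgeR or with DESeq2, and all 3 had an unadjusted p under 0.05, *MMP1* and *MMP3* with higher and *MMP2* with lower values in chaetocin (beside 20.3% of all genes in either direction). *MMP2* (ENSG00000087245, plus strand of chr16:55389700-55506691, GRCh38), the gelatinase that cleaves denatured collagen and type IV collagen, had the highest level per length of the 10 in control. It stood at 1751 and 1797 CPM in the control samples and at 1055 and 1364 CPM in the chaetocin samples. The groups did not overlap, and the mean was 1774 ± 32.6 CPM (SD, n = 2) in control and 1210 ± 218 CPM (SD, n = 2) in chaetocin. The log2 fold change was -0.55 ± 0.21 (SE, adjusted p = 0.187). Without chaetocin replicate 2 it was -0.76 and passed the test (adjusted p = 0.0177), and without chaetocin replicate 1 it was -0.38 (adjusted p = 0.143).

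*MMP3* (ENSG00000149968, minus strand of chr11:102835801-102843803), the stromelysin that cleaves proteoglycans and fibronectin and can activate other MMP precursors, was measured at 327 and 447 CPM in control. In the chaetocin samples it reached 820 and 459 CPM. Both chaetocin values were above both control values, but chaetocin replicate 2 exceeded control replicate 2 only slightly. Chaetocin against control gave a log2 fold change of 0.72 ± 0.28 (SE, adjusted p = 0.206). It was 0.25 without chaetocin replicate 1 (adjusted p = 0.376) and 1.08 without chaetocin replicate 2, where it passed (adjusted p = 0.00642). Of the 50-base windows of its transcripts, 2.88% are also found in *MMP10*, the neighbouring stromelysin gene, so a small share of reads could be split between them.

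*MMP1* (ENSG00000196611, minus strand of chr11:102789920-102798160), the collagenase that cuts fibrillar collagen, lies near *MMP3* in the MMP gene cluster of chromosome 11. Its level was 11.3 and 9.33 CPM in control (275 and 268 reads) and 40.4 and 14.1 CPM in chaetocin (880 and 502 reads). The groups did not overlap, yet the 2 chaetocin samples differed from each other 2.86-fold, against 1.21-fold between the control samples. On the log2 scale the fold change was 1.40 ± 0.44 (SE, adjusted p = 0.138). Its size rested on chaetocin replicate 1: without that sample it was 0.46 (adjusted p = 0.134), and without chaetocin replicate 2 it was 1.97 and passed (adjusted p = 0.000159). It also passed without control replicate 1, at 1.53 (adjusted p = 0.00184), but not without control replicate 2, at 1.26 (adjusted p = 0.615). In *MMP1* and *MMP3* alike, chaetocin replicate 1 was the higher sample of its group, whereas in *MMP2* it was the lower one.

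Among the membrane-bound members, *MMP14* fell and the 3 others did not pass the test. *MMP14* (ENSG00000157227, plus strand of chr14:22836557-22849027) encodes the transmembrane protease that cleaves collagen at the cell surface and activates the precursor of MMP2. It was read at 262 and 342 CPM in control and at 133 and 127 CPM in chaetocin. The chaetocin samples were close to each other, within 1.04-fold, and both were below either control sample. The mean was 302 ± 56.5 CPM (SD, n = 2) in control and 129.9 ± 3.69 CPM (SD, n = 2) in chaetocin. The log2 fold change was -1.22 ± 0.18 (SE, adjusted p = 0.0279), and the gene ranked 58 of 16416 by p-value. *MMP14* was called under each of the 10 alternatives tried, with a log2 fold change from -1.41 to -1.02 and an adjusted p of at most 0.0318.

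The sequence before the start of *MMP14* is printed because this gene was the one that passed the test. It is the RefSeq sequence of 222 bases at chr14:22836335-22836556 (GRCh38.p14, plus strand), which ends before the first annotated base of the gene, and capitals mark a GC box.
MMP14: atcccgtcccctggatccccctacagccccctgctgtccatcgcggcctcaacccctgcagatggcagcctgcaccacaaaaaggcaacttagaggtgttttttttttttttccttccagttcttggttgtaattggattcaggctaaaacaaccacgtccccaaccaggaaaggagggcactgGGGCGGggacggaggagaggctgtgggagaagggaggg
Of the 10 genes, 5 had a promoter in the RefSeq table used (*MMP14*, *MMP15*, *MMP24*, *TIMP1* and *TIMP3*). The 250 bases before their RefSeq starts were searched on both strands for 4 motifs, and no match of one overlapped a match of another. The GC box GGGCGG was found in 5 of 5 and in 42.6% of 35116 promoters of the same length. The AP-1 motif TGANTCA was in 0 of 5 and in 6.57% of all promoters, and the TATA motif TATAAA was in 0 of 5 and in 10.7%. The ETS motif CAGGAAG was in 1 of 5, *TIMP1*, and in 10.5% of all. *MMP14* had the fewest GC boxes of the 5 (1) and the lowest GC content of its window (56.8%), and *MMP24* had the highest GC content (77.6%). A match of letters is a description of the window and not a site of binding.

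The other membrane-bound members were far less abundant. *MMP17* (ENSG00000198598, plus strand of chr12:131828393-131851783), which is held on the membrane by a lipid anchor, stood at 6.47 and 7.31 CPM in control and at 5.38 and 5.40 CPM in chaetocin. The groups did not overlap, and the log2 fold change was -0.35 ± 0.23 (SE, adjusted p = 0.418). *MMP15* (ENSG00000102996, plus strand of chr16:58025566-58046901), a transmembrane relative of *MMP14*, was at 2.66 and 4.87 CPM in control and at 2.30 and 4.11 CPM in chaetocin. Its groups overlapped, and the samples of a group differed 1.83-fold in control and 1.79-fold in chaetocin. Its log2 fold change was -0.22 ± 0.39 (SE, adjusted p = 0.801), and the sign turned to 0.27 without control replicate 2 and to 0.12 without chaetocin replicate 1. *MMP24* (ENSG00000125966, plus strand of chr20:35226654-35277000), a transmembrane member known from the nervous system, had 59 and 67 reads in control and 77 and 104 in chaetocin. These were 2.42 and 2.33 CPM against 3.54 and 2.93 CPM, with a log2 fold change of 0.44 ± 0.29 (SE, adjusted p = 0.437). This value is uncertain, since 799 exon bases of *MMP24* overlap *MMP24OS* on the opposite strand, a gene with between 1077 and 1695 reads per sample, and the strand setting of the counting is not given in the sources used here.

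Among the inhibitors, all 3 had lower means in chaetocin and none passed the test with edgeR. *TIMP2* and *TIMP3* had an unadjusted p under 0.05 (beside 9.43% of all genes on the lower side), and DESeq2 called *TIMP2* (beside 2.93%). *TIMP2* (ENSG00000035862, minus strand of chr17:78852977-78925387), the inhibitor that also takes part in MMP2 activation, was at 213 and 212 CPM in control and at 133 and 129 CPM in chaetocin. The samples of each group were nearly equal and the groups were well apart. The mean was 212 ± 1.12 CPM (SD, n = 2) in control and 131 ± 2.85 CPM (SD, n = 2) in chaetocin. The log2 fold change was -0.70 ± 0.14 (SE), and the adjusted p of 0.0513 lay just above the threshold of 0.05. *TIMP2* was called under 5 of the 10 alternatives, with DESeq2 (adjusted p = 0.00284), without a filter on low counts (adjusted p = 0.00224) and without chaetocin replicate 1 (adjusted p = 0.00223) or chaetocin replicate 2 (adjusted p = 0.00963) among them. It did not pass without control replicate 1 (adjusted p = 0.273) or control replicate 2 (adjusted p = 0.222). Its log2 fold change stayed between -0.72 and -0.62 in all 10.

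*TIMP3* (ENSG00000100234, plus strand of chr22:32801701-32863043), the inhibitor that is bound to the matrix and also blocks ADAM proteases, had the most negative fold change of the 10 and a wide spread. It was at 221 and 109.5 CPM in control and at 80.1 and 31.8 CPM in chaetocin. Both chaetocin samples were below both control samples, but the control samples alone differed 2.01-fold. On the log2 scale the fold change was -1.57 ± 0.47 (SE, adjusted p = 0.134). It was -2.37 without chaetocin replicate 1 (adjusted p = 0.301), -1.05 without chaetocin replicate 2 (adjusted p = 0.522) and -0.99 without control replicate 1, where it passed (adjusted p = 0.0369). The sequence before *TIMP3* is printed for contrast with *MMP14*, as the inhibitor with the most negative fold change. It holds 246 bases at chr22:32801455-32801700 (RefSeq, GRCh38.p14, plus strand), and capitals mark 5 GC boxes on either strand.
TIMP3: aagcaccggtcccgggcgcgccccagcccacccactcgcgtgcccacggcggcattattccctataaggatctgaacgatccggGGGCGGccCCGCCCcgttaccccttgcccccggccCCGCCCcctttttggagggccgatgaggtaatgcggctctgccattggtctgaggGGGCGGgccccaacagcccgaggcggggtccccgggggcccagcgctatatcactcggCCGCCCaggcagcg
Its window held 26 CpG pairs against 7 in that of *MMP14*, and its GC content was 72.4%.

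*TIMP1* (ENSG00000102265, plus strand of chrX:47582313-47586789), a soluble inhibitor of most secreted MMPs, was at 241 and 180.1 CPM in control and at 211 and 121 CPM in chaetocin. The groups overlapped, with chaetocin replicate 1 above control replicate 2. The log2 fold change was -0.34 ± 0.27 (SE, adjusted p = 0.509), and it ranged from -0.80 without chaetocin replicate 1, where it passed (adjusted p = 0.00994), to -0.0027 without chaetocin replicate 2 (adjusted p = 0.994). Without control replicate 1 it was -0.13 (adjusted p = 0.956).

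**Figure D2:**
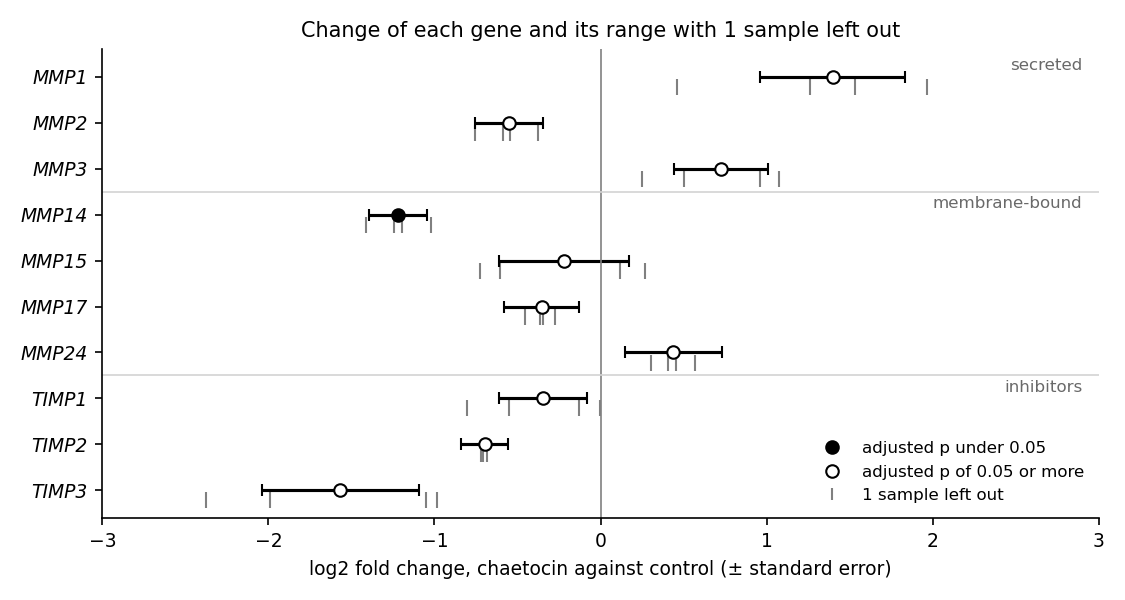
Log2 fold change of each gene, chaetocin against control, with its standard error (bar) and the values obtained with each of the 4 samples left out (ticks). *MMP14* is the filled point at -1.22, the ticks of *TIMP2* stay between -0.72 and -0.68, and those of *MMP1* run from 0.46 to 1.97.

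The 3 classes were set side by side by the median log2 fold change of their members, as a description. The median was 0.72 for the 3 secreted proteases, -0.29 for the 4 membrane-bound proteases and -0.70 for the 3 TIMPs, beside 0.01 for all genes tested. The secreted median was the value of *MMP3*, with *MMP1* at 1.40 and *MMP2* at -0.55, so it does not describe *MMP2*. Without chaetocin replicate 1 the secreted median was 0.25. The membrane-bound median was -0.53 and -0.0028 without control replicate 1 and 2, and -0.11 and -0.55 without chaetocin replicate 1 and 2. Relative to the control mean, the per-sample median of the secreted members was 1.10 and 0.26 in the chaetocin samples, with the control samples at -0.02 and 0.02. That of the TIMPs was -0.68 and -0.79 in chaetocin, with control at 0.21 and -0.21. For these classes both chaetocin samples lay outside the control values. The membrane-bound median was -0.49 and -0.08 in chaetocin against -0.14 and 0.14 in control, so these groups overlapped. The membrane-bound class thus held a called gene of high level together with 3 of low level that did not pass, and its median does not describe *MMP14*.

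By summed level, the classes were led by 1 gene each or by a few. The secreted members summed to 2089 and 2254 CPM in control and to 1915 and 1838 CPM in chaetocin, and *MMP2* supplied 83.8% and 79.7% of this sum in control but 55.1% and 74.2% in chaetocin. The membrane-bound members summed to 274 and 357 CPM in control and to 144 and 140 CPM in chaetocin, with at least 91.1% from *MMP14* in every sample. The TIMPs summed to 675 and 501 CPM in control and to 424 and 281 CPM in chaetocin. In each class both chaetocin sums lay below both control sums.

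Because the proteases and inhibitors meet as proteins, the ratios of their transcripts were computed within each sample, per kilobase of exon. With 2 samples per group an exact permutation test cannot give a two-sided p below 0.333, so the ratios are given as values only. *MMP14* over *TIMP2*, a pair that forms a complex on the cell surface, was 1.55 and 2.04 in control and 1.26 and 1.25 in chaetocin. *MMP2* over *MMP14*, the substrate and its activator, was 6.04 and 4.75 in control and 7.21 and 9.70 in chaetocin. Neither of these ratios overlapped between the groups, the first being lower and the second higher with chaetocin. *MMP2* over *TIMP2* did overlap, at 9.38 and 9.69 in control and at 9.06 and 12.1 in chaetocin.

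The computed protease ratios to *TIMP1*, those of *MMP3* and *MMP1*, were higher in chaetocin without overlap. Both of these proteases had higher values in chaetocin. Ratios of *MMP2* and *MMP14* to *TIMP1* were not computed. *MMP3* over *TIMP1* was 1.02 and 1.87 in control and 2.92 and 2.87 in chaetocin, so the chaetocin samples were close in this ratio although both genes differed between them. *MMP1* over *TIMP1* was 0.0365 and 0.0405 in control and 0.15 and 0.0916 in chaetocin. Among the inhibitors, *TIMP1* over *TIMP3* was 3.27 and 4.91 in control and 7.89 and 11.3 in chaetocin, also without overlap. The other computed ratios to *TIMP3*, those of *TIMP2* and *MMP14*, overlapped. Ratios of *MMP1*, *MMP2* and *MMP3* to *TIMP3* were not computed. *TIMP2* over *TIMP3* was 0.79 and 1.58 in control and 1.36 and 3.31 in chaetocin. *MMP14* over *TIMP3* was 1.23 and 3.22 in control and 1.71 and 4.13 in chaetocin. *MMP3* over *MMP1*, the clustered pair, overlapped at 27.9 and 46.1 against 19.5 and 31.3.

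**Figure D3:**
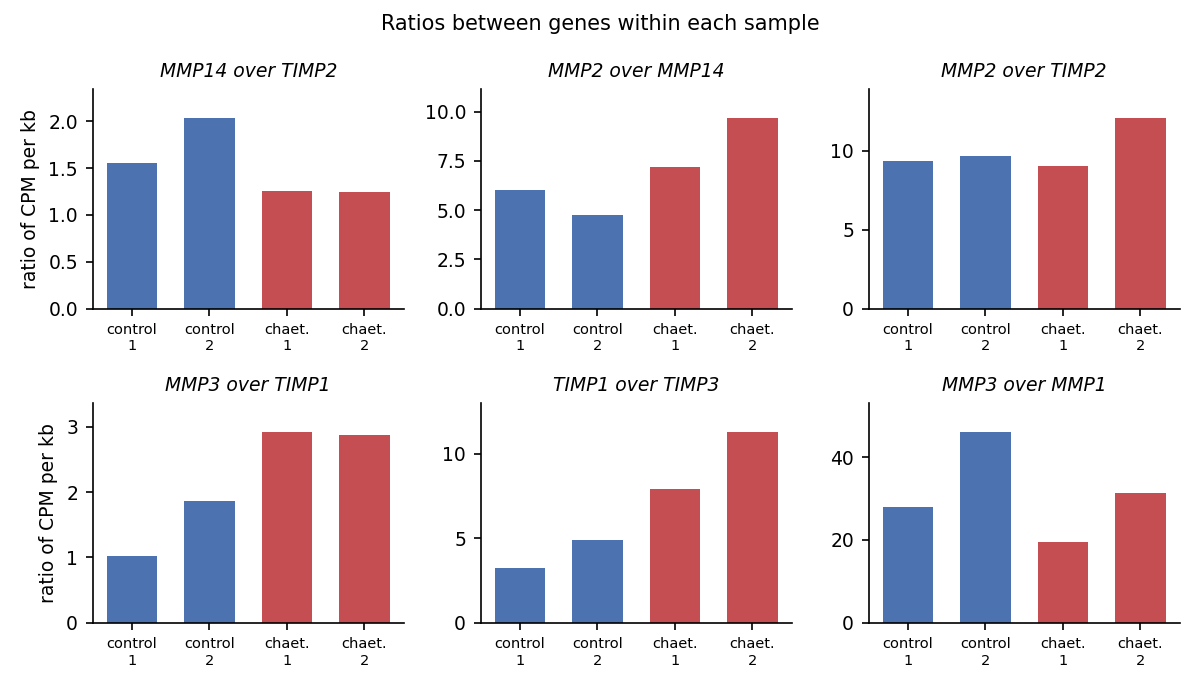
Ratio of 2 transcripts within each sample, from CPM per kilobase of exon, for 6 pairs of genes, with 1 bar per sample and axes from 0. *MMP14* over *TIMP2* is lower in both chaetocin samples (1.26 and 1.25) than in both control samples (1.55 and 2.04), and *MMP2* over *TIMP2* overlaps between the groups.

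Levels per length set the genes in order within each group, in mean CPM per kilobase. In control the order ran from *MMP2* (359.6) through *MMP3* (189), *TIMP1* (137), *MMP14* (67.7), *TIMP2* (37.7), *TIMP3* (35.9), *MMP1* (5.23), *MMP17* (1.72) and *MMP15* (0.853) to *MMP24* (0.538). Of these neighbours only *TIMP2* and *TIMP3* overlapped between their samples. In chaetocin *MMP3* (312) and *MMP2* (245) led and overlapped. *TIMP1* (108), *MMP14* (29.1) and *TIMP2* (23.2) came next without overlap, followed by *MMP1* (13.9), which overlapped *TIMP3* (12.1). *MMP17* (1.35) stood above *MMP24* (0.732) and *MMP15* (0.725), which overlapped. *MMP2* was thus above *MMP3* in both control samples, whereas their ranges met in chaetocin.

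The genes whose pattern was most like that of *MMP14* were sought among all 16416 genes by the Euclidean distance of log2 CPM over the 4 samples, each gene centred on its mean. The nearest was *CHI3L1*, which encodes a secreted chitinase-like protein abundant in glioblastoma, at a distance of 0.0653. It stood at 121 and 160 CPM in control and at 58.3 and 57.5 CPM in chaetocin (log2 fold change -1.28, adjusted p = 0.0266). *SYNC* (distance 0.0886) and *SPTLC3* (0.123) were called as well, with log2 fold changes of -1.21 and -1.11 and adjusted p-values of 0.0461 and 0.0306. The other 2 of the nearest 5, the transcripts *ASTN2-AS1* and AC104619.3, had under 1 CPM in every sample and did not pass. All 5 were picked by their values in the same 4 samples, so fold changes near that of *MMP14* follow from the choice.

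The remaining MMP genes and *TIMP4* were read beside the members. Of 17 listed, 15 were matched and 5 had enough reads to be tested, and edgeR called 0 of them. At an unadjusted p under 0.05, 1 was higher and 1 lower, and DESeq2 called 1 lower (beside 10.9%, 9.43% and 2.93% of all genes). Both chaetocin samples lay above both control samples in 40.0% of the 5 and below in 40.0%. Among all genes tested these shares were 26.8% and 26.0%. *TIMP4*, an inhibitor known from brain and heart, had the highest level per length, at 40.4 and 46.5 CPM in control and 30.7 and 38.4 CPM in chaetocin (log2 fold change -0.33, adjusted p = 0.327). *MMP16*, a membrane-bound protease, was looked up after its values were seen. It was at 43.5 and 43.4 CPM in control and 26.3 and 27.7 CPM in chaetocin, with an adjusted p of 0.0576 just above the threshold (log2 fold change -0.69). *MMP8*, *MMP13*, *MMP26* and *MMP27* had 0 reads in every sample, where 3 reads correspond to between 0.0844 and 0.138 CPM depending on the library, a limit that covers counting error only.

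In the related protease families, 1 gene each was called with edgeR, both lower (beside 0.743% of all genes). DESeq2 called 4 *ADAM* and 3 *ADAMTS* genes lower (beside 2.93% of all genes), and 5 of each were lower at an unadjusted p under 0.05 (beside 9.43%), with 2 *ADAMTS* genes higher (beside 10.9%). Of 11 tested *ADAM* genes, a family of membrane proteins that includes sheddases as well as members without protease activity, *ADAM12* fell from 395 and 332 CPM to 167 and 143 CPM (log2 fold change -1.23 ± 0.17 SE, adjusted p = 0.0279), and it was called under all 10 alternatives. *ADAM9* had the highest level per length of that family, at 656 and 652 CPM in control and 458 and 358 CPM in chaetocin (log2 fold change -0.68, adjusted p = 0.0946). Of 13 tested *ADAMTS* genes, which encode secreted proteases of proteoglycans and procollagens, *ADAMTS3* fell from 17.7 and 20.1 CPM to 7.72 and 10.2 CPM (log2 fold change -1.07, adjusted p = 0.0469). The call of *ADAMTS3* was lost without control replicate 2 (adjusted p = 0.124), with upper-quartile normalization (0.0567) and with at least 10 counts required in every sample (0.0604). *ADAMTS1*, the family's most abundant per length, stood at 100.5 and 152 CPM against 81.1 and 44.0 CPM (log2 fold change -1.02, adjusted p = 0.117). The median log2 fold change was -0.21 for the *ADAM* and -0.56 for the *ADAMTS* genes. Both moved with single samples. The *ADAM* median was -0.085 without control replicate 1, -0.35 without control replicate 2 and -0.33 without chaetocin replicate 2. The *ADAMTS* median was -0.18 without control replicate 1 and -0.26 without chaetocin replicate 2.

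The genes around the proteases were read in the same way. Of 17 tested activators, receptors and other inhibitors of MMPs, 16 had a negative log2 fold change. The median was -0.36, beside 0.01 for all genes tested. EdgeR called 0 of them, 7 were lower at an unadjusted p under 0.05, and DESeq2 called 4 lower (beside 9.43% and 2.93% of all genes). Their median was -0.61 without chaetocin replicate 1 and -0.23 without chaetocin replicate 2. Their most abundant gene per length was *TFPI2*, a secreted inhibitor of serine proteases, at 2555 and 1969 CPM in control and at 2782 and 857 CPM in chaetocin, so that the chaetocin samples lay on either side of both controls (adjusted p = 0.765).

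Among 17 tested matrix substrates, 14 had a negative log2 fold change and the median was -0.70, beside 0.01 for all genes tested. EdgeR called 1 lower (beside 0.743% of all genes). At an unadjusted p under 0.05, 11 were lower and 1 was higher (beside 9.43% and 10.9%). The gene called by edgeR was *VCAN*, the large proteoglycan versican. It fell from 422 and 409 CPM to 242 and 203 CPM (log2 fold change -0.90 ± 0.17 SE, adjusted p = 0.0399). Its call was lost without control replicate 1 (adjusted p = 0.111) or control replicate 2 (adjusted p = 0.0961). *FN1*, encoding fibronectin, had the highest level per length, at 6473 and 4835 CPM in control and at 3496 and 2023 CPM in chaetocin (log2 fold change -1.03, adjusted p = 0.114). DESeq2 called 8 of the 17 lower, beside 2.93% of all genes.

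Of 17 tested transcription factors known at MMP and TIMP promoters, edgeR called 1 higher and 0 lower (beside 1.11% and 0.743% of all genes). At an unadjusted p under 0.05, 1 was higher and 3 were lower (beside 10.9% and 9.43%). DESeq2 called 1 higher and 1 lower (beside 2.35% and 2.93%). *JUND*, a member of the AP-1 family, rose from 30.2 and 27.5 CPM to 63.1 and 57.7 CPM (log2 fold change 1.06 ± 0.15 SE, adjusted p = 0.0279), and it was called under all 10 alternatives. *FOSL1*, the AP-1 factor with the highest level per length, was at 343 and 384 CPM in control and 350 and 251 CPM in chaetocin, with overlapping groups (adjusted p = 0.473). The median of the 17 was -0.26, beside 0.01 for all genes tested, and 11 were negative.

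**Figure D4:**
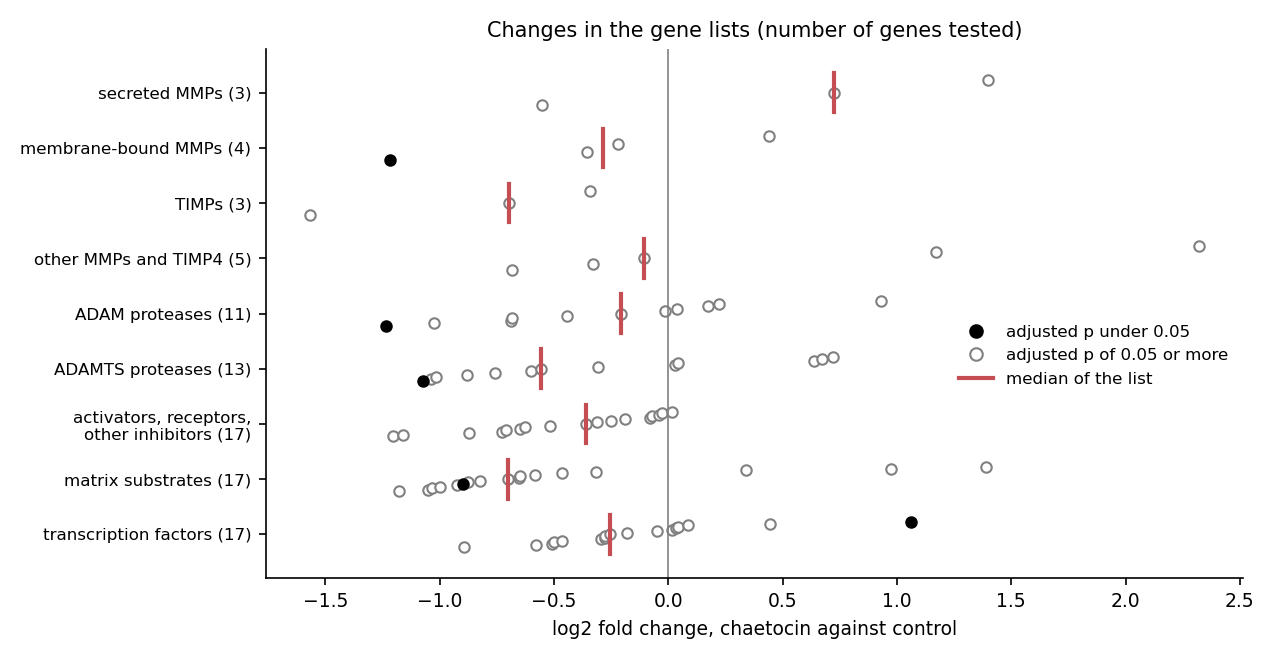
Log2 fold change, chaetocin against control, of each tested gene in the 3 classes of members and in 6 lists of related genes, with a bar at each list's median and filled points for an adjusted p under 0.05. The filled points are *MMP14*, *ADAM12*, *ADAMTS3* and *VCAN* on the negative side and *JUND* on the positive side.

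The libraries held between 21241984 and 32590479 counts. Chaetocin replicate 2 had at least 1 read in 27748 genes, against 24174 to 24699 genes in the other libraries, although control replicate 2 was nearly as deep. Markers of astroglial and glioma cells were led by *VIM* and *CD44*, and 5 of 7 had at least 3 reads in every sample, whereas *S100B* and *SOX2* had at most 5 reads. Their summed level was 5498 and 4793 CPM in control and 3222 and 1972 CPM in chaetocin. For fibroblasts the summed level of 5 markers was 795 and 522.5 CPM in control and 555 and 250 CPM in chaetocin, mostly from *COL1A1*. The leukocyte markers summed to at most 0.452 CPM in control and to 2.25 and 2.93 CPM in chaetocin, with *CD3E* at 0 reads throughout. The 2 endothelial markers summed to 0.861 and 1.29 CPM in control and to 2.11 and 3.15 CPM in chaetocin. The 5 epithelial markers summed to 2.38 and 1.95 CPM in control and to 3.86 and 3.69 CPM in chaetocin, with *KRT5* and *KRT14* at 0 reads. For these 3 lists both chaetocin sums lay above both control sums. The part that these differences between libraries play in the values of the MMP and TIMP genes was not tested.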

How the data were processed

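The 4 RNA-seq libraries were grouped by their labels as 2 control and 2 chaetocin samples. Per the labels, polyadenylated RNA was amplified with 15 cycles of PCR, and the methods give single-end reads. The submitters' processing notes name cutadapt, TopHat2, TopHat, SAMtools and GRCh37. The counting tool, its strand setting and the annotation are not given in the sources used here. The authors deposited raw read counts per gene, without normalization, and the methods name DESeq2. Symbols, positions (GRCh38) and exon lengths came from GENCODE v29, which held 52338 of 57905 identifiers. *MMP12* and *MMP28* were not analysed here, and 1 cell type marker is not reported here.

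Counts were filtered with filterByExpr (minimum count 10), TMM-normalized and fitted with edgeR 4.0.16 (quasi-likelihood, robust, no block) in R 4.3.3, and p-values were adjusted by Benjamini-Hochberg over 16416 genes at 0.05. Standard errors were the log2 fold change divided by the square root of F. The test was tested on simulated data. Alternatives were other size factors and filters, a replicate block, DESeq2 1.42.0 and leaving out each sample. Genes other than the 10 were named by rule: called genes of each list (at most 4), its most abundant gene per length, and the 5 genes nearest to the member of smallest p. *MMP16* falls outside this rule, as do the genes named for having 0 reads. Members and lists were chosen with earlier results of these data known.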

Additional observations from a re-analysis of the deposited data

How the results depend on the processing

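*MMP14* was called lower under every alternative tried. Upper-quartile normalization called 246 genes higher and 88 lower, against 182 and 122. With a requirement of 10 counts in every sample, 114 genes were higher and 80 lower, and 0 *ADAMTS* genes were lower, as with upper-quartile normalization. The median of the *ADAM* genes was -0.13 and -0.30 under these 2 settings (upper-quartile first). Without a filter on low counts, 787 genes were higher and 759 lower, 2 members were higher and 3 lower, and the calls lower were 1 among other MMPs, 4 *ADAM*, 5 *ADAMTS* (1 higher), 6 activators and inhibitors, 11 substrates (1 higher) and 2 transcription factors. The members that passed there were *MMP1* (1.38), *MMP2* (-0.57), *MMP3* (0.70), *TIMP2* (-0.72) and *MMP14*. DESeq2 called 385 genes higher and 481 lower, 2 members lower with *TIMP2* at -0.71, and lower 1 other MMP, 4 *ADAM*, 3 *ADAMTS*, 4 activators and inhibitors, 8 substrates and 1 transcription factor.

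With the replicate number as a block (replicate block), 1036 genes were higher and 1053 lower. The block gave 1 member higher, *MMP1* (1.23, adjusted p = 0.00355), and 3 lower, *MMP14*, *TIMP2* (-0.70, adjusted p = 0.00182) and *TIMP3* (-1.62, adjusted p = 4.72e-10), and lower 1 other MMP, 4 *ADAM*, 3 *ADAMTS*, 7 activators and inhibitors, 12 substrates (1 higher) and 4 transcription factors. The deviations of same-numbered samples correlated with r = 0.123 across genes in only 2 pairs, so the numbers were not taken to pair the samples. The block changed no other call among the 10 members.

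Leaving out each sample, which leaves 1 sample in a group assumed to vary like the other group, gave 215 to 1332 genes higher and 97 to 1673 lower. The high counts came without chaetocin replicate 1 (1332 and 1673) and without chaetocin replicate 2 (712 and 940). Members called ranged from 0 to 2 higher and 1 to 3 lower. List calls lower ranged from 0 to 1 for other MMPs, 1 to 5 for *ADAM* (0 to 1 higher), 0 to 5 for *ADAMTS* (0 to 2 higher), 1 to 9 for activators and inhibitors, 0 to 12 for substrates (0 to 1 higher) and 0 to 7 for transcription factors (1 to 2 higher). In all lists but other MMPs, where leaving out either chaetocin sample gave 1, the highest count lower came without chaetocin replicate 1, and the lowest came without a control sample. Medians ranged from 0.25 to 1.08 for secreted, -0.55 to -0.0028 for membrane-bound, -0.80 to -0.68 for TIMPs, -0.24 to -0.11 for other MMPs, -0.35 to -0.085 for *ADAM*, -0.83 to -0.18 for *ADAMTS*, -0.61 to -0.23 for activators and inhibitors, -1.03 to -0.59 for substrates and -0.38 to -0.19 for transcription factors. Log2 fold changes ranged from 0.46 to 1.97 for *MMP1*, -0.76 to -0.38 for *MMP2*, 0.25 to 1.08 for *MMP3*, -0.73 to 0.27 for *MMP15* (0.27 without control replicate 2 and 0.12 without chaetocin replicate 1), -0.80 to -0.0027 for *TIMP1*, -0.72 to -0.68 for *TIMP2* and -2.37 to -0.99 for *TIMP3*. The cause of these differences was not tested. The fit had 2 residual degrees of freedom, and the values of *MMP15* and *MMP24* rest on 50 to 146 reads per sample.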
